A study of Mus musculus with 3 samples.

Results

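Oligodendrocyte precursor cells were examined in 3 rhabdoid brain tumours of the mouse, each from a different animal of the group mouse RT, R26-SHH. A cell was counted as a precursor cell when at most 15% of its UMIs (unique molecular identifiers, which count single captured transcripts) came from mitochondrial genes, when at least 3 of 7 precursor genes (Pdgfra, Olig1, Lhfpl3, Tnr, Gpr17, Bcas1 and Cspg4) had a UMI, and when fewer than 2 of the myelin genes Mog, Mag and Mobp did. The rule selected 218 cells of 21666 within the mitochondrial limit, and of 28380 barcodes in all. The mice carried Rosa 26-CreERT2 and Smarcb1flox/flox on a mixed 129/SV and C57BL/6 background, and tamoxifen was given to recombine Smarcb1, which encodes a core subunit of the SWI/SNF chromatin remodelling complex. CreERT2 expressed from Rosa26 is not restricted to a cell type, so any cell of the tumour, precursor cells included, could carry either the floxed or the deleted allele. The study describes the tumours as Shh tumours of the basal ganglia. The cells were not sorted, all samples belong to a single group with the same genotype and treatment, and no tumour-free brain was analysed here. The study obtained tumours of this kind after tamoxifen given early in embryonic development. The age of each animal and its own day of tamoxifen are not given in the sources used here.

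Oligodendrocyte precursor cells are the dividing glial progenitors of the brain. They are held in that state by signals such as platelet-derived growth factor acting on its receptor Pdgfra, and they carry the chondroitin sulphate proteoglycan NG2, encoded by Cspg4. The transcription factors Olig2 and Sox10 set their lineage. On the way to a myelinating oligodendrocyte they pass through a committed stage, marked by the receptor Gpr17 and by Bcas1, before the genes of the myelin sheath are switched on.

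The tumours yielded 12467, 9485 and 6428 barcodes with 79529921, 40151353 and 67645602 UMIs and median depths of 3573, 1934 and 2785.5 UMIs. Precursor cells had median depths of 5270.5, 5867 and 12273 UMIs. The libraries shared few barcodes (42 between tumours 1 and 2, 22 between 1 and 3, 24 between 2 and 3), and 1 of the shared barcodes was a precursor cell. The comparison classes, also set by marker genes, were mature oligodendrocytes (27, 86 and 3 cells; at least 2 of Mog, Mag and Mobp), neural progenitor-like cells (2494, 1177 and 1561 cells; at least 2 of Sox2, Dlx1 and Dlx2) and immune cells (1122, 779 and 279 cells; at least 4 of 8 microglial and macrophage genes).

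Precursor cells were rare in each tumour and fewest in tumour 3. Tumour 1 held 1.34% (128 of 9560 cells, exact binomial 95% interval 1.12 to 1.59), tumour 2 held 1.16% (81 of 6964, 0.925 to 1.44) and tumour 3 held 0.175% (9 of 5142, 0.0801 to 0.332). With at least 4 of the rule genes required, the shares were 0.983, 0.704 and 0.117%. The mean was 0.892% ± 0.627 (SD, n = 3). The interval of tumour 3 did not overlap those of tumours 1 and 2, which overlapped each other. Intervals cover counting error only, and because tumour 3 gave fewer than 10 precursor cells it did not enter the tests between classes, so its values are given as a description.

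The genes that chose the cells are described without a test. Levels are given as CPM, UMIs of a gene per 1000000 UMIs of the summed cells of a class. Pdgfra, the receptor for platelet-derived growth factor (chr5:75152292-75198215, + strand, GRCm38), was at 856, 486 and 427 CPM in the precursor cells of tumours 1, 2 and 3. Olig1, a basic helix-loop-helix factor of the lineage (chr16:91269772-91271933), was at 1032, 480 and 778 CPM. Tnr, the matrix glycoprotein tenascin-R (chr1:159523769-159931729), was at 483, 315 and 220 CPM. Lhfpl3 (chr5:22746059-23275597) reached 873, 462 and 468 CPM, and Cspg4 238, 159 and 275 CPM. Bcas1 was at 582, 329 and 131 CPM, and Gpr17 at 429, 93.0 and 124 CPM. Of the 7 genes, Gpr17 differed by the largest factor between tumours 1 and 2.

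In shares of cells, Olig1 had a UMI in 89.1, 77.8 and 88.9% of the precursor cells, Pdgfra in 74.2, 75.3 and 88.9%, Tnr in 77.3, 75.3 and 77.8% and Bcas1 in 71.1, 76.5 and 77.8%. Lhfpl3 was seen in 75.8, 64.2 and 66.7% and Cspg4 in 53.1, 53.1 and 77.8%. Immune cells, which should lack these genes, had a UMI of a given rule gene in 0 to 4.49% of cells, at median depths of 4114, 6165 and 2642 UMIs. Cells with enough of these genes for the precursor rule were left out of the immune class. The shares in immune cells are therefore in part set by that choice and are no independent measure of background. Pdgfra, Olig1, Tnr, Lhfpl3, Gpr17 and Bcas1 each have an annotated transcript on the opposite strand that overlaps an exon, and whether the authors' counting used the strand is not stated.

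The label was checked on identity genes that the rule did not use. They vary with the rule genes in the same cells, so they describe the class and are no independent support for it. Sox10, a transcription factor of the whole oligodendrocyte lineage (chr15:79154908-79165240, - strand), was at 265, 148 and 96.4 CPM in precursor cells and at 1.66, 4.76 and 0.573 CPM in all other cells, so that the groups did not overlap. Its log2 difference was 6.0 (SE 0.28, edgeR quasi-likelihood test with Benjamini-Hochberg adjustment over all genes, adjusted p = 2.8e-90). Olig2, its partner in setting the lineage (chr16:91225457-91228677, + strand), was at 355, 113 and 186 CPM against 4.56, 6.07 and 3.70 CPM (log2 difference 5.16, SE 0.27, edgeR adjusted p = 2.59e-73). Both genes thus went with the label in all 3 tumours, though not in every cell, as the cells with exactly 3 rule genes show below.

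**Figure D1:**
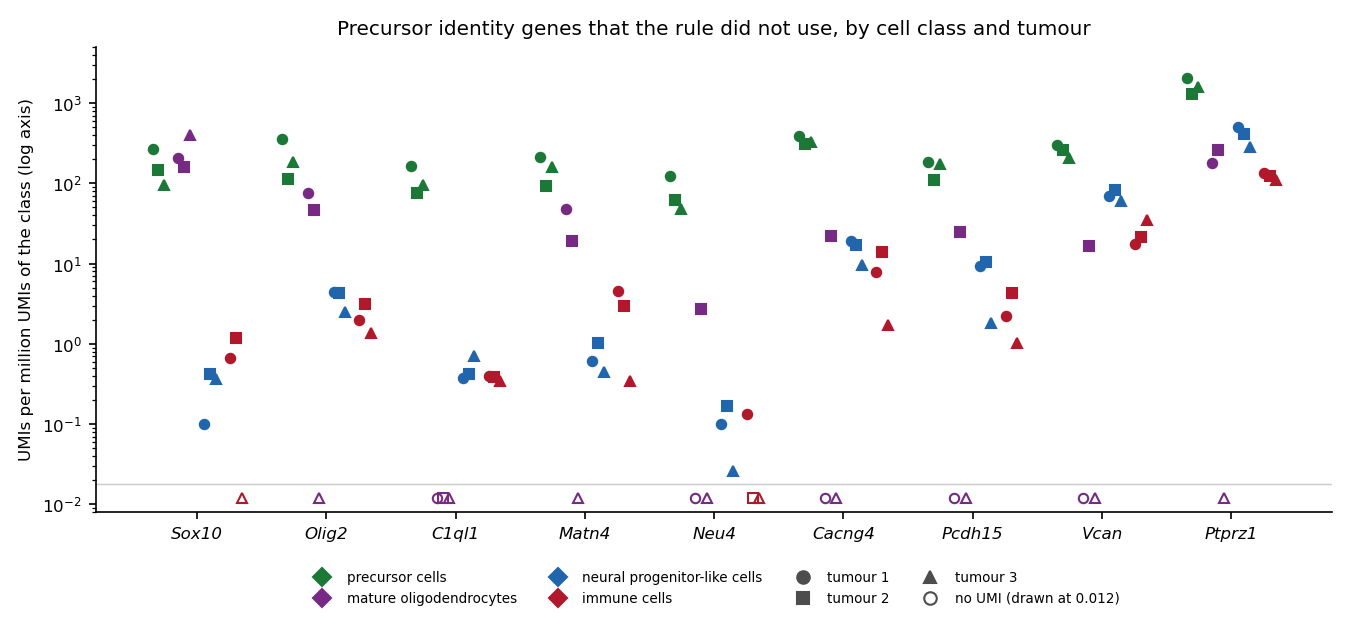
CPM of the class (log axis) for 9 identity genes that the rule did not use, in precursor cells, mature oligodendrocytes, neural progenitor-like cells and immune cells; each point is the summed cells of 1 tumour and open points mark no UMI. Sox10 lies between 96.4 and 265 CPM in the precursor cells and below 1 CPM in the neural progenitor-like cells of the 3 tumours.

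Against all other cells, 1083 of the 15720 genes tested were higher in precursor cells (6.89%) and 922 were lower (5.87%). Of the 22 identity genes outside the rule, 20 were higher and 2 lower, with a median log2 difference of 3.85 against -0.13 over all genes tested. One of the lower genes, named after its value was seen, was Sox13 (log2 difference -1.16). C1ql1, a secreted synaptic protein typical of these cells, was at 163, 76.8 and 96.4 CPM against 1.29, 1.26 and 0.727 CPM (log2 difference 6.35, SE 0.29, edgeR adjusted p = 1.22e-92). Matn4, a matrix protein of the matrilin family, was at 211, 91.6 and 158 CPM against 2.00, 2.20 and 0.619 CPM (5.94, SE 0.28, edgeR adjusted p = 6.28e-89). Rlbp1, which binds retinaldehyde in the eye, was at 103, 28.3 and 165 CPM against 0.531, 0.458 and 0.232 CPM (6.77, SE 0.43, edgeR adjusted p = 4.18e-49). With Sox10 these were the 4 largest differences of the list among genes of at least 20 CPM. The precursor values lay above those of the other cells in all 3 tumours, though for tumours 1 and 2 a shared direction was a condition for this choice.

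The test rested on the 4 sums of tumours 1 and 2, with 1 residual degree of freedom, so the spread came almost wholly from the moderation across genes. With a minimum of 5 cells per sum, an alternative chosen after seeing the data that lets tumour 3 in, 640 genes passed (536 higher, 104 lower), and at that minimum 336 passed without tumour 1 and 1011 without tumour 2. Of the genes named below as differing from all other cells, Mycn, Id4, Gli3, Sp9, Dpf1, Rest, Arid1b, Cxcl10, Atf3, Apoe, C1qa and Tgfb1 did not pass at that minimum with tumour 3 in (edgeR adjusted p from 0.0654 for Mycn to 0.656 for Tgfb1). Dpf1, Gli3, Sp9, Mycn, Smo, Rest and Arid1b did not pass with DESeq2 (adjusted p from 0.0555 to 0.476), nor did Arid1b with DESeq2 size factors in edgeR (adjusted p = 0.0807). Without the tumour as a replicate block, these genes and Cxcl10, Dscam, Ptch1, C4b, Gjc3, Tgfb1, Ugt8a, Myrf, Atf3, Id3, Peg3, Dcx, Notch1, Notch2, Apoe and Id4 did not pass (edgeR adjusted p from 0.051 to 0.367). Sox10, Olig2, C1ql1, Matn4 and Rlbp1 are all protein-coding genes, and an exon of Matn4 overlaps Rbpjl on the opposite strand.

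The 10 genes with the largest positive difference from all other cells, among those with a mean of at least 50 CPM in precursor cells, were Neu4, Rlbp1, C1ql1, Sox10, Matn4, Car8, Prkcq, S100a3, Brinp3 and Gjc3. Neu4, a sialidase that removes sialic acid from cell surface glycans, led with 124, 62.0 and 48.2 CPM against 0.518, 0.659 and 0.0155 CPM (log2 difference 7.14, SE 0.33, edgeR adjusted p = 5.99e-90). Brinp3 was at 243, 133 and 82.6 CPM against 2.68, 6.19 and 0.433 CPM (5.33, SE 0.27), and Car8, a carbonic anhydrase-related protein, at 111, 43.1 and 48.2 CPM against 1.25, 1.60 and 0.464 CPM (5.54, SE 0.34). S100a3 (5.36, SE 0.45) shares exon sequence on its own strand with Gm42674, so its counts are uncertain. Prkcq, a protein kinase C, was at 80.5, 37.7 and 20.7 CPM against 0.899, 1.46 and 0.387 CPM (5.49, SE 0.43).

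The promoters of 3 of these genes are shown as examples of genes that stand apart from the rest of the tumour: Neu4 and Rlbp1 had the largest differences of the 10, and Gjc3 is a connexin that returns among the myelin genes below. The sequences are from RefSeq (GRCm38.p6), 5′ to 3′ on the gene's strand, from 250 bases before to 50 bases after the start. Neu4 is at chr1:94020243-94020542 (+ strand), Rlbp1 at chr7:79386978-79387277 (- strand) and Gjc3 at chr5:137963049-137963348 (- strand). Capitals mark the 1 match to ACAAAG or its reverse complement CTTTGT, the core letters bound by Sox factors.
Neu4: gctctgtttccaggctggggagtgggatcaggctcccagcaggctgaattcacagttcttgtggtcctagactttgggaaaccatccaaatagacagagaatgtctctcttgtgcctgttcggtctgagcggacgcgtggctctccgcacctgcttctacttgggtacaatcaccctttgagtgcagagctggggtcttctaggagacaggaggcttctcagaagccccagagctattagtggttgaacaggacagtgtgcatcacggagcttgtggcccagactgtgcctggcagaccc
Rlbp1: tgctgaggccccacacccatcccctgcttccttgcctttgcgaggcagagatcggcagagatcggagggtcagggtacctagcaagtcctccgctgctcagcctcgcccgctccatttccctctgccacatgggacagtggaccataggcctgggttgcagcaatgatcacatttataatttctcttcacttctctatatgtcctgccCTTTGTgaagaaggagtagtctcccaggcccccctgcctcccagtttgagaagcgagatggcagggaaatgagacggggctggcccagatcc
Gjc3: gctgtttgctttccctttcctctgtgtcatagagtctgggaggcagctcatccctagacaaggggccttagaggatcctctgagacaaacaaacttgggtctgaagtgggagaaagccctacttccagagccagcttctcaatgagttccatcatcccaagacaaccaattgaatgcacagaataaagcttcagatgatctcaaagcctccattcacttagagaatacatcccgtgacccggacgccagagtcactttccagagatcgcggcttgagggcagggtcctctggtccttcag
Of 32851 promoters of this length from 27025 genes, 18.7% held ACAAAG on either strand and 16.3% held CAGCTG, an E-box of the kind bound by basic helix-loop-helix factors, which reads the same on both strands and does not overlap the first motif. Of the 10 genes, 7 matched the promoter table, with 13 promoters between them. ACAAAG was in 2 of these (15.4%) and CAGCTG in 4 (30.8%). These are matches of letters, and the shares are descriptions.

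Genes of the committed stage were present in part. Of 19 tested genes of committed precursors and newly formed oligodendrocytes, 11 were higher than in all other cells and 1 was lower (median log2 difference 1.53). Enpp6, a choline phosphodiesterase that marks newly forming oligodendrocytes, was at 79.4 and 33.7 CPM in tumours 1 and 2 and had no UMI in tumour 3, against 2.59, 4.53 and 0.944 CPM (log2 difference 3.84, SE 0.38, edgeR adjusted p = 2.04e-21). Itpr2, an intracellular calcium channel, was at 255, 119 and 110 CPM against 14.5, 17.9 and 13.9 CPM (3.30, SE 0.24, edgeR adjusted p = 6.14e-38). Lims2 was also higher (4.11, SE 0.43), but it overlaps Gpr17 on the opposite strand and its reads may belong to that rule gene. At 5 cells per sum and without tumour 1, Enpp6 (2.33, edgeR adjusted p = 0.669) and Lims2 (3.16, edgeR adjusted p = 0.0575) no longer passed.

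Of 24 genes of the myelin list, 11 were higher in precursor cells than in all other cells and 4 lower. All other cells held only 27, 86 and 3 mature oligodendrocytes. Against that class alone 0 of the 24 genes were higher and 22 lower, as given below. The higher genes included the connexin Gjc3 (261, 214 and 200 CPM against 3.45, 10.2 and 0.356 CPM, log2 difference 5.16, SE 0.26), Myrf, the factor that switches on myelin genes (68.0, 35.0 and 6.89 CPM against 1.95, 6.5 and 0.650 CPM, 3.68, SE 0.40), and Ugt8a, the enzyme that makes the myelin lipid galactocerebroside (161, 101 and 41.3 CPM against 8.81, 13.8 and 1.25 CPM, 3.4, SE 0.25). Each of these passed the edgeR test at an adjusted p of 0.05. Myrf no longer passed at 5 cells per sum without tumour 1 (2.46, edgeR adjusted p = 0.418).

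The next groups concern the surface and the matrix around the cells. Of 33 genes of ion channels, transmitter receptors and adhesion, 27 were higher than in all other cells (median log2 difference 2.28). Cntn1, an adhesion molecule of the contactin family, was at 811, 375 and 599 CPM against 17.5, 31.2 and 6.02 CPM (4.42, SE 0.27, edgeR adjusted p = 5.05e-55). Opcml, a membrane-anchored adhesion protein, was at 468, 286 and 172 CPM against 8.68, 20.5 and 4.83 CPM (4.63, SE 0.26), and the AMPA glutamate receptor subunit Gria3 at 172, 105 and 172 CPM against 4.56, 9.28 and 2.88 CPM (4.24, SE 0.26). Dscam, an adhesion molecule of neurites, was at 74.8, 57.9 and 124 CPM against 1.39, 4.24 and 0.325 CPM (4.61, SE 0.35). The precursor values of these 4 genes lay above those of the other cells in each tumour. For tumours 1 and 2 that direction was a condition for naming them.

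Of 19 tested genes of the extracellular matrix and proteoglycans, 10 were higher and 2 lower. Bcan, the brain proteoglycan brevican, was at 389, 331 and 165 CPM against 26.8, 39.1 and 14.8 CPM (log2 difference 3.32, SE 0.24, edgeR adjusted p = 1.44e-39), and Omg, the oligodendrocyte myelin glycoprotein, at 115, 48.5 and 41.3 CPM against 2.62, 5.47 and 1.28 CPM (4.23, SE 0.30, edgeR adjusted p = 1.78e-40). Growth factor receptors and ligands were split, with 9 of 30 higher and 7 lower. Gpr37l1, a receptor for prosaposin, was higher (328, 148 and 138 CPM against 4.5, 12.5 and 4.86 CPM, log2 difference 4.75, SE 0.26), as was the axon guidance gene Sema5a (3.19, SE 0.25). Tgfb1 was lower in tumours 1 and 2 (1.13 and 6.73 CPM against 31.9 and 40.0 CPM, -3.43, SE 0.45), and in tumour 3 it was higher in the precursor cells (124 against 19.7 CPM). With the 5-cell minimum and without tumour 1 its difference was 0.10. Without tumour 2 it was -0.23, and neither value passed.

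Genes of cholesterol and lipid synthesis, which oligodendrocyte cells need to build membrane, were higher for 11 of 24 and lower for 3 (median log2 difference 0.59). Msmo1, an enzyme of sterol synthesis, was at 175, 115 and 200 CPM against 42.4, 59.7 and 44.8 CPM (1.35, SE 0.23, edgeR adjusted p = 1.5e-07). Apoe, the main lipid carrier of the brain and abundant in immune cells, was lower in tumours 1 and 2 (993 and 1823 CPM against 3092 and 7237 CPM, -1.97, SE 0.39) and higher in tumour 3 (4874 against 1722 CPM). Apoe no longer passed at 5 cells per sum without tumour 1 (-0.45) or without tumour 2 (-0.29).

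Interferon and antigen presentation genes were higher for 2 of 23 and lower for 7, where 6.89 and 5.87% of all genes were, so the share of higher ones was near that over all genes. The 2 higher ones were Serpina3n, a secreted protease inhibitor (238, 87.6 and 13.8 CPM against 4.21, 7.96 and 3.11 CPM, log2 difference 4.55, SE 0.27, edgeR adjusted p = 1.42e-58), and the complement component C4b (230, 87.6 and 62.0 CPM against 4.67, 12.9 and 1.25 CPM, 4.11, SE 0.27, edgeR adjusted p = 2.28e-48). The chemokine Cxcl10 was lower in tumours 1 and 2 (1.13 and 5.39 CPM against 42.7 and 56.5 CPM, -4.15, SE 0.43) and not in tumour 3 (55.1 against 21.8 CPM). Cxcl10 no longer passed at 5 cells per sum without tumour 1 (-1.21) or without tumour 2 (-1.51).

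Markers of other cell types were followed as summed levels over each list. The 8 immune genes summed to 179, 447 and 6857 CPM in precursor cells, to 2091, 2508 and 860 CPM in all other cells and to between 15909 and 19633 CPM in immune cells. Against neural progenitor-like cells, whose rule allows fewer than 2 of these genes, 7 of 8 were higher (5 with at least 4 rule genes, and 1 without cells that carried genes of another class), a difference that the rule sets in part. All 8 were lower in the precursor cells of tumours 1 and 2 than in all other cells, for example C1qa, a complement gene of microglia (40.8 and 87.6 CPM against 489 and 548 CPM, log2 difference -3.24, SE 0.27). The level in tumour 3 rested on 1 precursor cell with UMIs in at least 3 immune genes, and without cells that carried genes of another class the sums were 58.3, 113 and 18.1 CPM. Tgfb1, Apoe and Cxcl10, whose direction differed in tumour 3, moved with this level, and its part in those values was not tested. Endothelial markers summed to 9.07, 206 and 41.3 CPM against 181, 190.3 and 268 CPM in all other cells, and fibroblast markers to 20.4, 106 and 151 CPM against 160.2, 167 and 27.6 CPM. Mural markers summed to 5.67, 185 and 1308 CPM against 178, 108 and 357 CPM, so the precursor cells of tumours 2 and 3 lay above all other cells. Without cells that carried genes of another class, mural markers were at 3.33, 0 and 0 CPM, endothelial markers at 8.33, 13.3 and 0 CPM and fibroblast markers at 6.66, 39.9 and 0 CPM. Astrocyte markers summed to 311, 362 and 241 CPM against 175, 270.5 and 107 CPM, and neuron markers to 346, 357 and 179 CPM against 191, 334 and 165 CPM. Without cells that carried genes of another class, these were 178, 246 and 526 CPM for astrocyte markers and 293, 355 and 327 CPM for neuron markers. Of the 8 astrocyte markers 3 were higher than in all other cells and 0 lower, and with at least 4 rule genes 2 were higher and 2 lower. Of the 6 neuron markers 2 were higher than in all other cells (median log2 difference -0.28), and with at least 4 rule genes 2 were higher and 3 lower. Dcx was one of the higher ones (161, 86.2 and 131 CPM against 22.7, 47.6 and 7.71 CPM, 1.73, SE 0.24). C1qa no longer passed at 5 cells per sum without tumour 1 (-0.098) or without tumour 2 (-0.53).

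Smarcb1, the gene inactivated in the model, is on the minus strand of chromosome 10 (chr10:75896769-75921617). In precursor cells it was at 80.5 CPM in tumour 1 (71 UMIs), 24.2 in tumour 2 (18 UMIs) and 20.7 in tumour 3 (3 UMIs). In neural progenitor-like cells it was at 0.641, 0.763 and 1.02 CPM, so the classes did not overlap. The log2 difference was 5.85 (SE 0.43, edgeR adjusted p = 1.64e-05), and over all alternatives it ranged from 4.71 to 6.44. Immune cells were at 22.8, 16.2 and 17.6 CPM, and all other cells together at 4.24, 5.18 and 3.64 CPM (log2 difference 3.21, SE 0.38, edgeR adjusted p = 5.33e-15). Mature oligodendrocytes were at 28.5, 30.0 and 168 CPM, on 3, 11 and 5 UMIs, and their difference from precursor cells was 0.41 (SE 0.57, edgeR adjusted p = 0.761). The sources used here do not say which exon is floxed. Because the libraries are counted from the 3′ end, tags outside the deleted part would not check the recombination. For its own work the study filtered the mouse cells on Ptprc, Epcam and Smarcb1, with the aim of leaving out cells that are not tumour cells. The difference from all other cells no longer passed at 5 cells per sum without tumour 1 (2.14, edgeR adjusted p = 0.473).

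**Figure D2:**
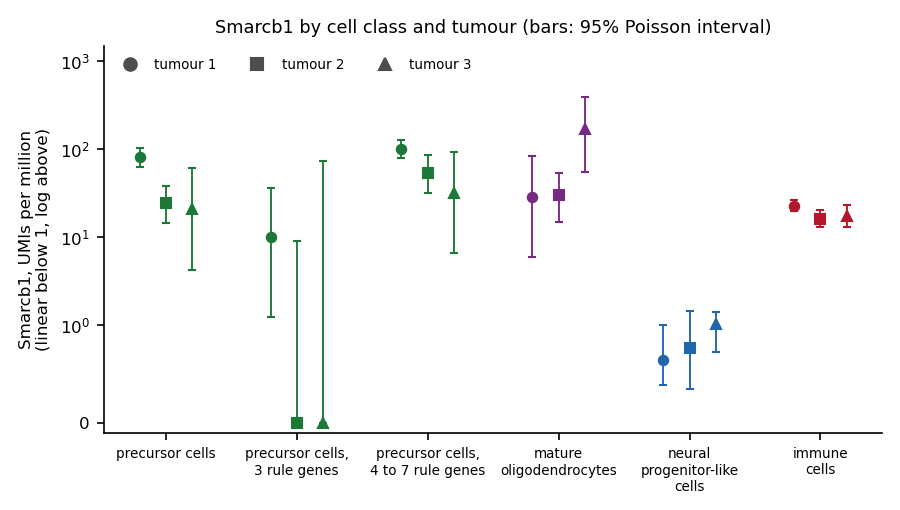
Smarcb1 in CPM of the class (linear below 1, log above) for precursor cells, precursor cells with 3 and with 4 to 7 rule genes, mature oligodendrocytes, neural progenitor-like cells and immune cells; points are tumours and bars are 95% Poisson intervals of the UMI count. Precursor cells with 4 to 7 rule genes lie between 31.8 and 101 CPM, and neural progenitor-like cells between 0.641 and 1.02 CPM.

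The Smarcb1 level differed among the precursor cells by how many of the rule genes they carried. Of the 218 cells, 69 had exactly 3 rule genes and 149 had 4 to 7. Cells with 4 to 7 had Smarcb1 at 101 CPM for tumour 1 (exact Poisson 95% interval 78.6 to 128), 53.6 CPM for tumour 2 (31.8 to 84.7) and 31.8 CPM for tumour 3 (6.56 to 92.9). Cells with exactly 3 had 10.1 CPM in tumour 1 (2 UMIs, upper bound 36.4) and no UMI in tumour 2 (upper bound 9.07) and tumour 3 (upper bound 72.5). In tumours 1 and 2 the intervals did not overlap, and in tumour 3, with 3 and 6 cells, they did. Cells just outside the rule, with 2 of the genes (260 cells), had Smarcb1 at 9.33 CPM over the 3 tumours, against 3.05 CPM at 3 genes, 71.0 at 4, 64.1 at 5, 64.1 at 6 and 103 at 7.

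Sox10 and Olig2 were also higher at 4 rule genes than at 3, given as a description. Sox10 was at 3.54 CPM in the cells with 2 rule genes, 24.4 with 3, and 154, 310, 326 and 319 CPM with 4, 5, 6 and 7. Olig2 was at 13.5, 27.4, 118, 281, 379 and 434 CPM. Dlx1, a factor of ventral forebrain progenitors, was at 94.2, 77.7 and 94.7 CPM at 2, 3 and 4 genes and lower, at 4.93, 53.0 and 17.1 CPM, at 5, 6 and 7. A UMI of Sox10 or Olig2 was found in 20 of the 69 cells with exactly 3 rule genes (29.0%, 18.7 to 41.2) and in 126 of the 149 others (84.6%, 77.7 to 90.0). Median depths were 9254.5 UMIs at 2 genes, 3298 at 3 and 6132 at 4 to 7, and the part of depth in these values was not tested.

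**Figure D3:**
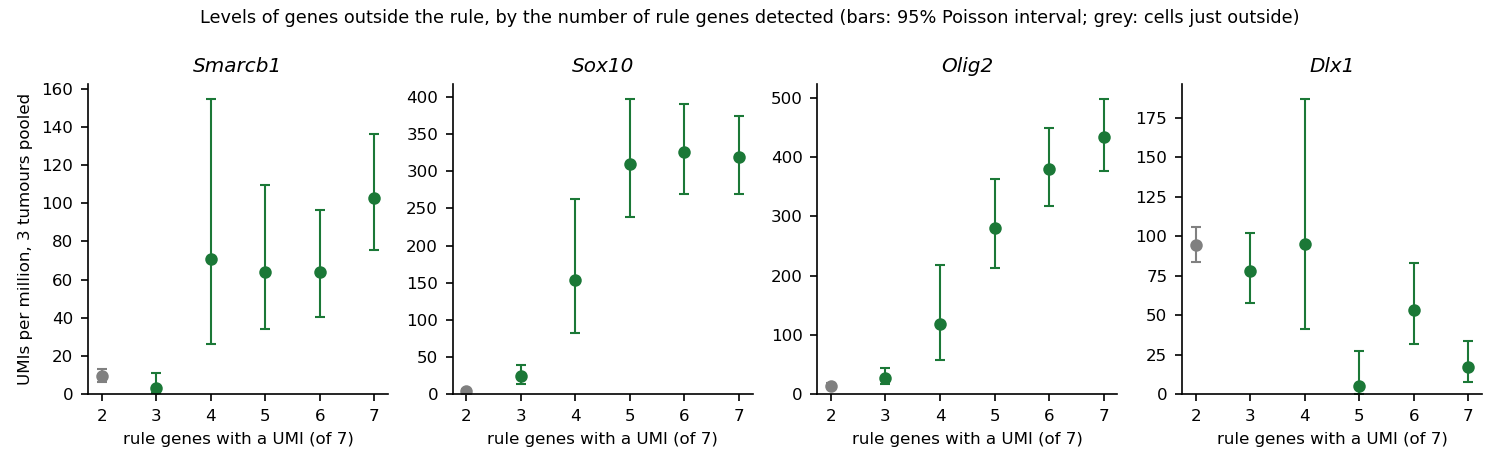
CPM, pooled over the 3 tumours, of Smarcb1, Sox10, Olig2 and Dlx1 in cells with 2 to 7 of the 7 rule genes; bars are 95% Poisson intervals and the grey point is the cells just outside the rule. Smarcb1 and Sox10 step up between 3 genes (3.05 and 24.4 CPM) and 4 genes (71.0 and 154 CPM).

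The cells with exactly 3 rule genes held a different mix of them. Olig1 had a UMI in 63.8% of them, Bcas1 in 58.0%, Pdgfra and Tnr in 53.6% each, Gpr17 in 31.9%, Lhfpl3 in 26.1% and Cspg4 in 13.0%. In cells with 4 to 7 genes Lhfpl3 was seen in 91.9% and Cspg4 in 73.2%. Olig1, Tnr and Bcas1 formed a commonest triple with 9 cells, as did Tnr, Gpr17 and Bcas1 with 9 cells. Split by identity instead, precursor cells with a Sox10 or Olig2 UMI had Smarcb1 at 99.1, 46.9 and 31.8 CPM, and those with neither had 10.8 CPM in tumour 1 and no UMI in tumours 2 and 3. UMIs of Sox10 or Olig2 were thus found mainly in the 149 cells, and some list counts below are also given for these cells alone. They were not free of markers of other cell types. Immune markers summed to 164, 149 and 10546 CPM in them and endothelial markers to 7.32, 295 and 0 CPM. Mural markers summed to 4.39, 325 and 0 CPM and fibroblast markers to 11.7, 41.7 and 0 CPM.

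Compared with neural progenitor-like cells alone, 1271 of 14137 genes tested were higher in precursor cells (8.99%) and 387 lower (2.74%). With only precursor cells of at least 4 rule genes the counts were 1642 and 1287. Of the 22 identity genes, 20 were higher and 2 lower (median log2 difference 3.92 against -0.05 over all genes). Committed-stage genes were higher for 11 of 19 (2.57), myelin genes for 13 of 24 (2.64), channel, receptor and adhesion genes for 25 of 33 (2.76), and matrix genes for 10 of 16 (2.32). Sox10 was at 0.101, 0.424 and 0.366 CPM in neural progenitor-like cells (log2 difference 9.45, SE 0.53, edgeR adjusted p = 4.97e-06), Olig2 at 4.45, 4.32 and 2.51 CPM (5.54, SE 0.38, edgeR adjusted p = 1.07e-05), Gjc3 at 0.405, 1.27 and 0.0523 CPM (8.28, SE 0.44) and C4b at 0.776, 1.86 and 0.653 CPM (6.53, SE 0.69). Neural progenitor-like cells are part of all other cells, so both comparisons share cells and their values are not separate evidence. Without tumour 1, 341 genes passed. Of the genes named below against this class, Notch1, Notch2, Dlx5 and Meis2 did not pass without the replicate block (edgeR adjusted p from 0.146 to 0.855), nor Meis2 with DESeq2 (adjusted p = 0.0669) or with 5 cells per sum (edgeR adjusted p = 0.0569).

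**Figure D4:**
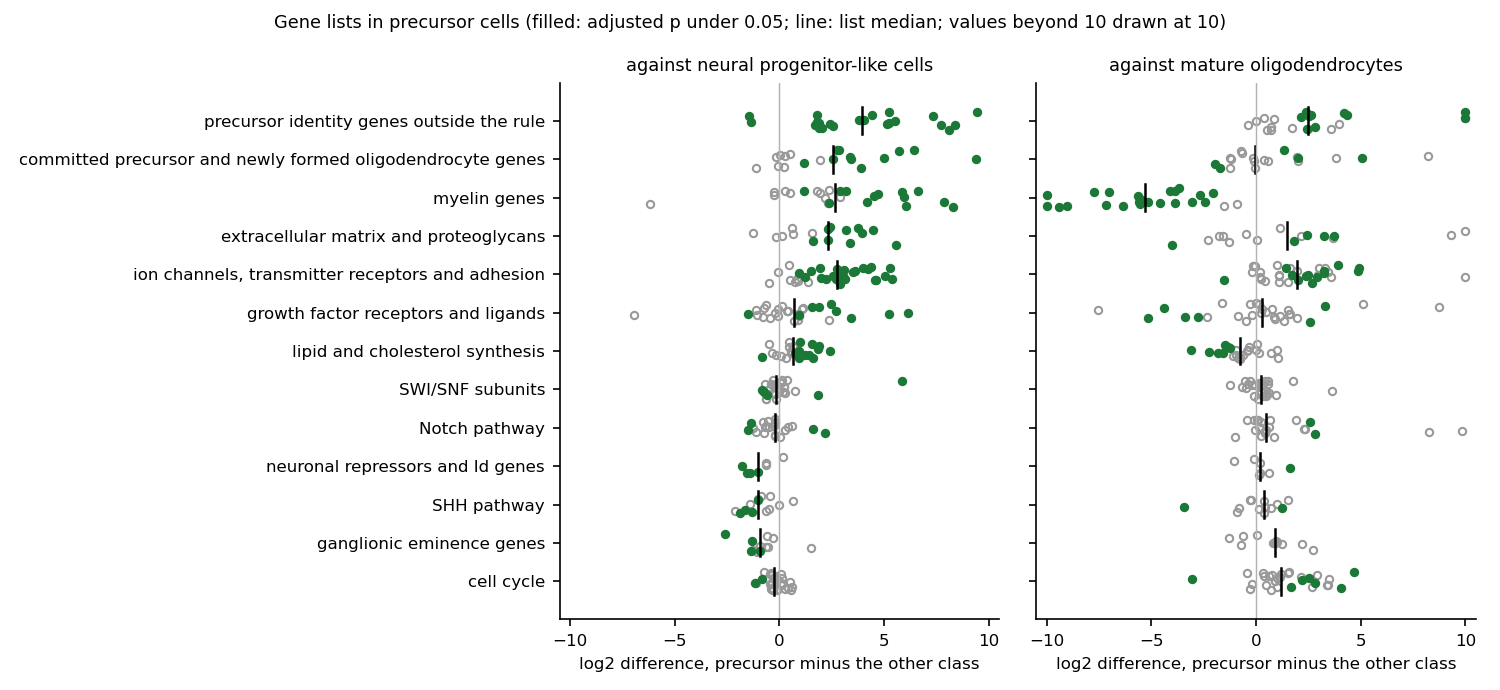
Log2 difference between precursor cells and neural progenitor-like cells (left) or mature oligodendrocytes (right) for the tested genes of 13 lists; filled points passed the edgeR test at an adjusted p of 0.05, black lines are list medians and values beyond 10 are drawn at 10. Identity genes have medians of 3.92 and 2.47, and myelin genes of 2.64 and -5.31.

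The Sonic hedgehog pathway patterns the ventral forebrain. Of 13 tested genes of the pathway, 7 were lower than in all other cells (median log2 difference -0.90; 8 with at least 4 rule genes) and 4 lower than in neural progenitor-like cells (median -1.03; 7 with at least 4 rule genes). Ptch1, the receptor and a target of the pathway, was at 159, 183 and 200 CPM in precursor cells, 290, 301 and 299 CPM in all other cells and 334, 366 and 248 CPM in neural progenitor-like cells (-0.95, SE 0.23, edgeR adjusted p = 0.000709, and -1.03, SE 0.22, edgeR adjusted p = 0.0105). Smo, the membrane transducer, was at 31.8, 40.4 and 34.4 CPM against 71.2, 67.3 and 94.7 CPM in all other cells (-1.11, SE 0.26, edgeR adjusted p = 0.00031). Gli3, a transcriptional effector, was at 12.5, 43.1 and 34.4 CPM against 59.1, 61.3 and 57.2 CPM (-1.37, SE 0.27, edgeR adjusted p = 1.44e-05). The precursor values of these 3 genes lay below those of all other cells in every tumour, a direction that for tumours 1 and 2 was a condition for naming them. At 5 cells per sum and without tumour 1, Ptch1 (-0.85), Smo (-1.20) and Gli3 (-0.78) kept their direction and did not pass (edgeR adjusted p from 0.194 to 0.859), and against neural progenitor-like cells Ptch1 did not pass without tumour 1 (-0.91) or tumour 2 (-1.10).

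Of 13 tested genes of the ganglionic eminence, the ventral progenitor zone of the forebrain, 5 were lower than in all other cells and 1 higher (median -0.58). Sp9, a factor of its neurons, was at 35.2 and 47.2 CPM in tumours 1 and 2 and had no UMI in tumour 3, against 74.0, 83.9 and 124 CPM (-1.11, SE 0.25, edgeR adjusted p = 0.000224). Against neural progenitor-like cells 4 of 12 were lower (median -0.93; 7 with at least 4 rule genes), among them Dlx5 (2.27 and 5.39 CPM in tumours 1 and 2 against 17.5 and 22.7 CPM, -2.60, SE 0.66, edgeR adjusted p = 0.0253) and Meis2 (111, 129 and 27.5 CPM against 230, 195 and 20.7 CPM, -0.92, SE 0.23, edgeR adjusted p = 0.0259), which was not lower in tumour 3. This class was chosen on Dlx1 and Dlx2, so genes that go with them describe that choice in part. Against neural progenitor-like cells Meis2 did not pass without tumour 1 (-0.71, edgeR adjusted p = 0.195), nor Dlx5 without tumour 1 (-2.32) or tumour 2 (-3.29).

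Repressors of neuronal genes and Id genes, which hold progenitors undifferentiated, were lower for 4 of 7 in both comparisons (median -0.84 against all other cells). Id4 was at 160, 242 and 145 CPM against 498, 420 and 149 CPM in all other cells (-1.37, SE 0.25, edgeR adjusted p = 8.48e-07), a gap seen in tumours 1 and 2 and small in tumour 3. Id3 was at 163, 283 and 248 CPM against 479, 400 and 909 CPM (-1.18, SE 0.25, edgeR adjusted p = 3.77e-05), and Rest, the repressor of neuronal genes outside the nervous system, at 54.4, 53.9 and 68.9 CPM against 83.6, 89.9 and 89.5 CPM (-0.84, SE 0.24, edgeR adjusted p = 0.00695). Id4 did not pass at 5 cells per sum without tumour 1 (-0.65, edgeR adjusted p = 0.835), nor Rest without tumour 1 (-0.78) or tumour 2 (-0.74).

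Among 23 Notch pathway genes, 1 was higher and 5 lower than in all other cells, and 9 were lower when at least 4 rule genes were required. Over all genes, that setting called 1466 of 15529 higher and 1853 lower, against 1083 and 922 of 15720 in the main fit. Notch1, a receptor, was the higher one (72.6, 78.1 and 145 CPM against 23.5, 33.5 and 51.8 CPM, log2 difference 1.27, SE 0.24, edgeR adjusted p = 3.77e-06), while the receptor Notch2 was lower (63.5, 167 and 55.1 CPM against 201, 244 and 208 CPM, -1.22, SE 0.24, edgeR adjusted p = 6.58e-06). The same opposite pair was seen against neural progenitor-like cells (1.58, SE 0.40, and -1.49, SE 0.35), where the target gene Hes1 was lower as well (-1.37, SE 0.25, edgeR adjusted p = 0.00438). Of 28 SWI/SNF subunit genes, Smarcb1 and Dpf1, a subunit of the neural form of the complex, were higher than in all other cells and Arid1b was lower, shares near those over all genes (6.89 and 5.87%). With at least 4 rule genes, where more genes were called over all, 3 were higher and 6 lower. Dpf1 was at 29.5, 21.6 and 13.8 CPM against 6.01, 8.45 and 6.08 CPM (1.69, SE 0.45, edgeR adjusted p = 0.00289) and Arid1b at 54.4, 79.5 and 34.4 CPM against 99.3, 96.3 and 84.0 CPM (-0.72, SE 0.24, edgeR adjusted p = 0.0228). At 5 cells per sum and without tumour 1, Notch1 (1.14), Dpf1 (1.11) and Arid1b (-0.83) did not pass against all other cells, nor did Dpf1 without tumour 2 (1.71). Against neural progenitor-like cells Notch1 (1.30), Notch2 (-0.99) and Hes1 (-1.02) did not pass without tumour 1, nor Notch1 without tumour 2 (1.45).

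Oncofetal and imprinted growth genes were lower for 3 of 15 than in all other cells and higher for 1, where 5.87 and 6.89% of all genes were, and with at least 4 rule genes 4 were lower and 3 higher. Mycn was at 27.2, 41.8 and 6.88 CPM against 81.4, 60.4 and 107 CPM (log2 difference -1.20, SE 0.26, edgeR adjusted p = 8.75e-05), and the imprinted gene Peg3 at 264, 199 and 131 CPM against 86.5, 130 and 46.7 CPM (0.96, SE 0.22, edgeR adjusted p = 0.00033). Immediate early and heat shock genes, which respond quickly to stimulation and stress, were lower for 5 of 14 than in all other cells (median -0.65) and for 12 of 14 with at least 4 rule genes. These counts were 0 and 8 against neural progenitor-like cells, and 3 and 8 against mature oligodendrocytes. An example is Atf3 (24.9 and 37.7 CPM in tumours 1 and 2 against 126 and 113 CPM, -2.11, SE 0.26), which was higher in tumour 3 (110 against 51.7 CPM). Calls over all genes also rose with at least 4 rule genes. Against all other cells they went from 1083 to 1466 higher and from 922 to 1853 lower. The lower calls went from 387 to 1287 against neural progenitor-like cells and from 563 to 617 against mature oligodendrocytes. Sox2, the progenitor factor, was at 323, 238 and 248 CPM against 326, 270 and 352 CPM (-0.25, SE 0.23, edgeR adjusted p = 0.607). Peg3 did not pass at 5 cells per sum without tumour 1 (0.81), nor Atf3 without tumour 1 (-0.54) or tumour 2 (-0.94).

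The comparison with mature oligodendrocytes followed the lineage to its end. Of 14140 genes tested, 276 were higher in precursor cells (1.95%) and 563 lower (3.98%). Of the 22 identity genes, 10 were higher (median log2 difference 2.47 against 0.20 over all genes; 14 with at least 4 rule genes), and of 24 myelin genes 22 were lower (median -5.31). Both classes were chosen on genes of these kinds, so the identity and myelin genes here and below describe that choice in part and are no independent support for it. Vcan, the proteoglycan versican, was at 297, 264 and 207 CPM in precursor cells and at 0, 16.3 and 0 CPM in mature oligodendrocytes (4.34, SE 0.53, edgeR adjusted p = 0.000594). Cacng4, an auxiliary subunit of AMPA receptors, was at 387, 307 and 324 CPM against 0, 21.8 and 0 CPM (4.22, SE 0.60, edgeR adjusted p = 0.00169). C1ql1 and Rlbp1 had no UMI in the mature cells of tumours 1 and 2 and were at least 19.5-fold and at least 10.9-fold higher in precursor cells, with 3 counts over the 2 tumours taken as the floor. Rlbp1 did not pass without tumour 1 (edgeR adjusted p = 0.226) or without tumour 2 (edgeR adjusted p = 0.0958). Sox2 was at 85.6, 201.5 and 202 CPM in mature oligodendrocytes and its difference did not pass (0.58, SE 0.32, edgeR adjusted p = 0.345).

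Of the myelin genes, Mal, a proteolipid of compact myelin, was at 5.67, 22.9 and 0 CPM in precursor cells and at 7513, 6298 and 975 CPM in mature oligodendrocytes (log2 difference -9.42, SE 0.93, edgeR adjusted p = 0.000166). Aspa, the enzyme that breaks down N-acetylaspartate, had no UMI in precursor cells of tumours 1 and 2 and was at least 171-fold lower than in mature cells by the same floor. Ermn and Opalin, genes of the mature cell, had between 0 and 2 UMIs per tumour in precursor cells against 394.8 to 1046 and 403 to 770 CPM in the mature cells of tumours 1 and 2. Of 29 growth factor receptors and ligands, 4 were lower than in mature oligodendrocytes and 2 higher, among the latter Gpr37l1 (3.31, SE 0.79, edgeR adjusted p = 0.0325), which did not pass without tumour 1 (2.29, edgeR adjusted p = 0.16). Of the lower ones, Gpr37 was at 15.9, 16.2 and 0 CPM against 295, 308 and 336 CPM (-4.42, SE 0.31, edgeR adjusted p = 2.93e-05) and the lysophosphatidic acid receptor Lpar1 was at 5.67, 12.1 and 6.88 CPM against 390, 199 and 303 CPM (-5.19, SE 0.60, edgeR adjusted p = 0.000424). Without tumour 1, 353 genes passed in this comparison, and without tumour 2, 306 did. The mature cells were shallow (median 1115 and 1568 UMIs in tumours 1 and 2), and their part in the low levels was not tested.

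Of 16 matrix and proteoglycan genes, 4 were higher than in mature oligodendrocytes and 1, the protease gene Adamts4 (-4.00, SE 0.49), was lower. Cspg5, the proteoglycan neuroglycan C, was at 1259, 674 and 792 CPM against 47.5, 101 and 101 CPM in mature oligodendrocytes (3.27, SE 0.36, edgeR adjusted p = 0.000315). Bcan was at 19 and 27.2 CPM in the mature cells of tumours 1 and 2 (3.74, SE 0.37, edgeR adjusted p = 0.000171) and at 908 CPM in the 3 mature cells of tumour 3, above the precursor cells there. Channel, receptor and adhesion genes were higher for 12 of 33 and lower for 1. Lipid synthesis genes were lower for 7 of 24 (median -0.77), for example Scd2, a fatty acid desaturase (751, 574 and 268 CPM against 2121, 1492 and 1043 CPM, -1.59, SE 0.20, edgeR adjusted p = 0.000657). The Notch target Hes5 was higher in precursor cells (94.1, 60.6 and 27.5 CPM against 9.51, 10.9 and 0 CPM, 2.59, SE 0.55, edgeR adjusted p = 0.0183). Sox10 showed no difference that passed (209, 161 and 404 CPM in mature cells, -0.02, SE 0.40), and Olig2 missed the threshold (1.69, SE 0.46, edgeR adjusted p = 0.0579) but passed with at least 4 rule genes (2.33, edgeR adjusted p = 0.00134). Hes5 did not pass without tumour 1 (2.32, edgeR adjusted p = 0.0809) or without tumour 2 (3.18, edgeR adjusted p = 0.197).

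Cell cycle genes were higher than in mature oligodendrocytes for 6 of 30 and lower for 1. Against neural progenitor-like cells 0 were higher and 2 lower (0 and 7 with at least 4 rule genes). Against all other cells 2 were higher and 3 lower (3 and 7 with at least 4 rule genes). Mki67, a marker of dividing cells, was at 69.2, 129 and 241 CPM against 0, 16.3 and 0 CPM (2.81, SE 0.60, edgeR adjusted p = 0.0186), a call that was lost without cells that carried genes of another class (2.91, edgeR adjusted p = 0.106), without Scrublet doublets (edgeR adjusted p = 0.189) and without the replicate block (edgeR adjusted p = 0.0707). Top2a, needed to separate replicated DNA, was at 195, 295 and 282 CPM against 28.5, 40.8 and 33.6 CPM (2.5, SE 0.40, edgeR adjusted p = 0.00376), a call lost without Scrublet doublets (edgeR adjusted p = 0.0821). Against all other cells neither passed, with Mki67 at 72.5, 57.1 and 134 CPM there (0.42, SE 0.23, edgeR adjusted p = 0.3) and Top2a at 244, 154 and 330 CPM (0.16, SE 0.23, edgeR adjusted p = 0.797). Neither passed against neural progenitor-like cells (Mki67 0.12, SE 0.28, edgeR adjusted p = 0.845; Top2a -0.20, SE 0.25, edgeR adjusted p = 0.679), though Top2a passed as lower with at least 4 rule genes (-0.79, edgeR adjusted p = 0.0113). Against all other cells, with at least 4 rule genes, Mki67 passed as higher (0.66, edgeR adjusted p = 0.0123) and Top2a as lower (-0.46, edgeR adjusted p = 0.0488). Without tumour 2, neither Mki67 (edgeR adjusted p = 0.0602) nor Top2a (2.64, edgeR adjusted p = 0.0581) passed against mature oligodendrocytes.

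In shares of cells, each cell was thinned to 2000 UMIs and counted as cycling with a Mki67 or Top2a UMI. Tumour 1 had 10.4% of 96 precursor cells cycling (exact binomial interval 5.11 to 18.3), tumour 2 had 23.5% of 68 (14.1 to 35.4) and tumour 3 had 37.5% of 8 (8.52 to 75.5). Neural progenitor-like cells had 16.0, 13.5 and 21.9%, and immune cells 9.94, 9.70 and 16.4%. Unthinned shares were 23.4, 29.6 and 55.6% in precursor cells and 29.0, 22.6 and 45.1% in neural progenitor-like cells. The thinned difference was 6.69 percentage points ± 11.0 (SD, n = 3), higher in 2 of 3 tumours, with an exact two-sided sign-flip permutation p = 0.5, where 3 tumours allow no p under 0.25. With at least 4 rule genes the shares of precursor cells were 12.7% of 79, 13.6% of 44 and 33.3% of 6. Without cells that carried genes of another class they were 10.5% of 76, 13.6% of 44 and 0% of 5. In that last setting the cycling share of precursor cells minus neural progenitor-like cells was -9.07 points.

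**Figure D5:**
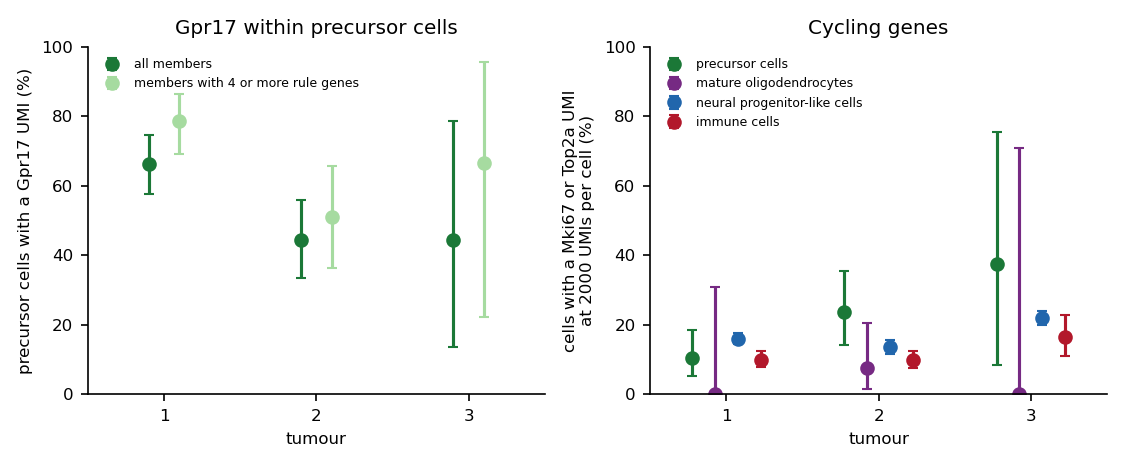
Left, share of precursor cells with a Gpr17 UMI for all precursor cells and for those with at least 4 rule genes; right, share of cells with a Mki67 or Top2a UMI at 2000 UMIs per cell in 4 classes, by tumour with exact 95% binomial intervals. The Gpr17 share is 66.4% in tumour 1 and 44.4% in tumours 2 and 3, and the cycling shares of precursor cells run from 10.4 to 37.5%.

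Precursor cells also varied in Gpr17, the receptor of the committed stage. The share of precursor cells with a Gpr17 UMI was 66.4% for tumour 1 (57.5 to 74.5), 44.4% for tumour 2 (33.4 to 55.9) and also 44.4% for tumour 3 (13.7 to 78.8), against at most 0.642% of immune cells. The intervals of tumours 1 and 2 did not overlap. Among cells with at least 4 rule genes the shares were 78.7, 51.0 and 66.7%. Gpr17 is one of the rule genes, which also limited the immune class. The shares in precursor cells and in immune cells are therefore a description.

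Between Gpr17-positive and Gpr17-negative precursor cells, 1 of 12862 genes tested was higher (0.00777%) and 9 were lower (0.07%), while 1683 had an unadjusted p under 0.05. The 10 genes are named because they are all that passed. Zdhhc2, a palmitoyltransferase, was higher in positive cells (206 and 216 CPM in tumours 1 and 2 against 56.0 and 46.4 CPM, log2 difference 1.98, SE 0.29, edgeR adjusted p = 0.0203). Id3 was lower (112 and 108 CPM against 292 and 382 CPM, -1.72, SE 0.28, edgeR adjusted p = 0.0434), as was Sox1, a progenitor factor (58.5 and 52.2 CPM against 200.1 and 240 CPM, -2.02, SE 0.29, edgeR adjusted p = 0.0203). The other lower genes were Fndc3c1, Fstl1, Hand2, Lhx1, Neurog2, Sostdc1 and Tmem132c, with log2 differences from -5.27 (Neurog2) to -1.96 (Fstl1). No gene passed with at least 4 rule genes (642 with an unadjusted p under 0.05) or without either of tumours 1 and 2, DESeq2 called 166 in the main setting, and negative cells are more often those with exactly 3 rule genes.

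Sox10 and Olig2 were at higher levels in Gpr17-positive cells in both tumours tested without passing. Olig2 was at 440 and 231 CPM against 140 and 46.4 CPM (log2 difference 1.91, SE 0.33, edgeR adjusted p = 0.055) and Sox10 at 331 and 253 CPM against 100 and 88.6 CPM (1.58, SE 0.35, edgeR adjusted p = 0.0923). Smarcb1 was at 96.5 and 52.2 CPM against 40.0 and 8.44 CPM (1.78, SE 0.50, edgeR adjusted p = 0.173). Olig2 passed in 5 of the alternative fits, Sox10 in 2 and Smarcb1 in 1, and in the others, with at least 4 rule genes among them, they did not. Sox2 (0.17, SE 0.28, edgeR adjusted p = 0.875), Mki67 (1.08, SE 0.45, edgeR adjusted p = 0.326) and Top2a (-0.70, SE 0.32, edgeR adjusted p = 0.369) did not pass. Tumour 3 had 4 positive and 5 negative cells, too few for a sum.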

How the data were processed

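Single-cell RNA-seq was done by the authors on 3 tumours with the 10x 3′ kit (V2 chemistry), after a debris removal step where blood was abundant. The deposited matrices, from Cell Ranger 3.1.0 on mm10 as run by the authors, hold raw UMI counts for each gene and barcode (versions per the submitters' processing notes). They are not normalized, and the lowest barcode holds 500 UMIs. Which barcodes the authors kept for their own clustering was not used here.

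Classes were set by UMIs in marker genes with at most 15% mitochondrial UMIs, and cells that met the rules of 2 classes entered none of the 3 comparison classes. Mature oligodendrocytes and immune cells had fewer than 3 of the 7 precursor genes, and neural progenitor-like cells also had fewer than 2 of the 8 immune genes, so the immune genes are in part set by that rule and their differences from that class are only counted. The members and gene lists were chosen with earlier results of these data known. The rule genes stayed in the library sizes and out of the tested genes.

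UMI counts were added up over the cells of a class within a tumour, for classes of at least 10 cells, and tested in edgeR 4.0.16 (R 4.3.3) with glmQLFit and glmQLFTest, TMM, filterByExpr, terms for class and tumour, and Benjamini-Hochberg adjustment over all genes tested at 0.05. The tumour was a block because the classes come from the same animal, and the replicate numbers only name the tumours. The comparison with all other cells had 4 sums, that with mature oligodendrocytes and neural progenitor-like cells 10 sums of 4 classes in 1 fit, and the Gpr17 split 12 sums, where tumour 3 entered through other classes only. SEs were derived from the F statistic. DESeq2 1.42.0 was an alternative. The scripts were tested on simulated counts.

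In each comparison the text gives, whatever the result, Smarcb1, Sox10, Olig2, Sox2, Mki67 and Top2a, and draws on up to 4 genes per list that passed, differed the same way in each tumour tested and had at least 20 CPM, and on the 10 largest differences from all other cells. Sox2 was a rule gene of the neural progenitor-like class and was not tested against it. Scrublet (scanpy 1.11.5) called 2, 1 and 1 doublets by its own threshold, so an alternative removed cells at a fixed rate of 0.8% per 1000 cells (15, 6 and 1 precursor cells). Of the precursor cells, 6, 14 and 1 had at least 3 immune genes, 0, 2 and 0 at least 3 endothelial genes, and 17, 14 and 2 at least 2 of Sox2, Dlx1 and Dlx2. An alternative left all these out. Free RNA was not corrected for. Of 31053 genes, 30934 matched GENCODE M21 (GRCm38), and positions are 1-based. Python 3.11.15, numpy 2.4.6, scipy 1.17.1 and matplotlib 3.10.9 were used. A few genes of the lists are counted in them but not reported here by name.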

Additional observations from a re-analysis of the deposited data

How the results depend on the processing

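The differences rest on 2 tumours, on 128 and 81 precursor cells and, against all other cells, on 1 residual degree of freedom. A gene at or under 3 counts in a class was not resolved at this depth. Without replicate 3 the count against all other cells is the main one by construction, since its 9 cells did not enter, and leaving out replicate 1 or 2 could be fitted only with 5 cells per sum, which was chosen after seeing the data. Sox10, Olig2 and Smarcb1 kept their direction against neural progenitor-like cells in each alternative run, and Smarcb1 there ranged from 4.71 to 6.44. Their calls held in each run that kept tumours 1 and 2. Without tumour 1 or 2, the fits of several classes held 1 sum of precursor cells. The spread in those fits came from sums of other classes, so their calls are descriptions only. The share of precursor cells ranged from 0.601 to 1.25%.

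Each alternative was a separate fit, and the counts are all genes called in it. Between precursor cells and all other cells (2005 genes in the reported fit), 888 passed with DESeq2, 308 with no replicate block, 3319 with at least 4 of the 7 rule genes, 1231 at a mitochondrial limit of 10%, 3337 without cells that carry genes of another class and 640 with at least 5 cells per sum. Of the 2005 genes, 887 were among those called with DESeq2, 307 with no replicate block, 1904 with at least 4 rule genes, 1908 without mixed cells and 636 with 5 cells per sum. At 5 cells per sum, 336 passed without replicate 1, 1011 without replicate 2 and 2005 without replicate 3. Against mature oligodendrocytes (839), no replicate block gave 508 and leaving out 1 replicate 306 to 918. Against neural progenitor-like cells (1658), no replicate block gave 901, at least 4 rule genes 2929, leaving out mixed cells 2823 and leaving out 1 replicate 341 to 1876. Between Gpr17-positive and Gpr17-negative cells (10), 278 passed with a filter of 10 counts, 166 with DESeq2, 31 at the 10% limit, 22 in cells of at least 2000 UMIs, and 0 with no replicate block (1218 with an unadjusted p under 0.05), with at least 4 rule genes (642) or without mixed cells (841). Leaving out 1 replicate gave 0 to 89. Against all other cells the fit with no replicate block also took in the third tumour's other cells (5 sums and 16980 genes, against 4 and 15720), so its count differs by more than the pairing. The cause of these shifts was not tested.

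These are the log2 differences of the genes that turned direction under an alternative, with other values of the same gene where given. Against all other cells, without replicate 1 at 5 cells per sum: Cdkn1a 0.15, Col1a2 0.67, Cx3cr1 0.23, Fosb 0.23, Igf1 0.22, P2ry12 0.47 and Tgfb1 0.10. Without replicate 2, P2ry12 was at 0.22 and Top2a at -0.50. Mki67 was at -0.030 with no replicate block and -0.041 without Scrublet doublets. Top2a was at -0.19 with no replicate block, -0.46 with at least 4 rule genes, -0.31 without Scrublet doublets, -0.53 without mixed cells and -0.066 with 5 cells per sum. Against mature oligodendrocytes, Smarcb1 was at -0.46 without replicate 1 and 1.37 without replicate 2, and Sox10 at 0.045 with no replicate block, 0.64 with at least 4 rule genes, 0.17 without Scrublet doublets, 0.66 without mixed cells, -0.27 without replicate 1 and 0.21 without replicate 2. Against neural progenitor-like cells, Cx3cr1 was at -0.52 without mixed cells, Mki67 at -0.21 with no replicate block, -0.24 without Scrublet doublets, 0.65 without replicate 1 and -0.53 without replicate 2, and Top2a at 0.34 without replicate 1 and -0.80 without replicate 2. Between Gpr17-positive and Gpr17-negative cells, Top2a was at 1.52 with at least 4 rule genes and 0.48 without mixed cells. The cycling share of precursor cells minus neural progenitor-like cells was -9.07 points without mixed cells and -0.0101 after thinning to 1000 UMIs.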
